A study of Mus musculus with 8 samples.

Results

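The collagen genes of the mouse, the family that encodes the main structural proteins of the extracellular matrix, were followed in myoblasts, the proliferating precursor cells of skeletal muscle. A gene was taken as a collagen when its symbol consisted of Col, a number, the letter a and a number, which found 91 probes for 44 genes among 45281 probes on the array. For each gene 1 probe was read, the one whose standard deviation over the 8 arrays was largest, so that the 44 collagens stand among 31443 features, that is, named genes and unnamed probes. By the chain type, 11 were fibrillar collagens, 8 were collagens of the basement membrane (Col4a1 to Col4a6, Col15a1 and Col18a1) and 25 were other collagens. No collagen was removed for a low value.

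Total RNA of murine skeletal myoblasts treated with siRNA, either a scrambled control or one that targets G9a (siG9a), was measured on Illumina BeadChip arrays at day 0 and at day 1. G9a, encoded by Ehmt2, is a methyltransferase that acts on lysine 9 of histone H3 and is associated with gene silencing. There were 2 biological replicates, numbered 1 and 2 in the sample titles, of each of the 4 groups: control at day 0, siG9a at day 0, control at day 1 and siG9a at day 1. The labels name no strain, sex or age, do not say whether the replicates came from separate animals or cultures, and do not define day 0. If the replicates share a culture, p-values measure technical spread alone. All values are in log2 units and stand relative to a reference level that each probe has for itself, so a value compares arrays for 1 gene, never 1 gene with another, and whether a probe was above background is unknown here. In a bulk sample, fewer cells of a type and less RNA per cell cannot be told apart.

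Collagen chains wind around each other into a long helix. Fibrillar collagens (types I, II, III, V, XI, XXIV and XXVII) assemble into the cross-banded fibres that carry tension in tendon, skin and the connective tissue of muscle. Type IV collagens form the sheet-like network of the basement membrane, which wraps every muscle fibre and on which the muscle stem cell lies, and types XV and XVIII are bound to that membrane. Among the rest, type VI forms beaded filaments next to the muscle basement membrane, types IX, XII, XIV, XVI, XIX, XX and XXII sit on the surface of fibrils, types VIII and X form lattices, type VII forms the anchoring fibrils of skin, and types XIII, XVII, XXIII and XXV span the cell membrane. In muscle much of the interstitial collagen is made by fibroblasts, and muscle cells themselves also make collagen.

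The replicates stood apart before any comparison was made. Medians of the 8 arrays ranged from -0.146 to 0.108: the 4 arrays of replicate 1 had negative medians and the 4 of replicate 2 positive ones. The siRNA's target Ehmt2 was at 1.23 and 0.59 in control and at -0.82 and -0.69 in siG9a cells at day 0, and at 0.77 and 0.66 against -0.95 and -0.31 at day 1 (replicate 1, then 2), without overlap, although its adjusted p was 1.0 at each day in limma. Markers of differentiating muscle (6 genes, among them Myog, Myh3 and Ckm) had medians from -4.98 to -1.67 on the day 0 arrays and from -0.52 to 0.74 on the day 1 arrays. The median of their differences, replicate 2 minus replicate 1, was -0.99 to -3.36 within groups. The medians of the myoblast list (7 genes) lay between -0.84 and 0.72. The medians of endothelial, macrophage, adipocyte, fibroblast and tendon and cartilage lists lay between -0.27 and 0.28 on every array. These values are relative, so no defining marker can be said to be at 0.

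The spread of a gene over the 8 arrays was read on the probe kept for its largest standard deviation. This rule widens the ranges of genes with several probes, which were 59.1% of the collagens and 27.1% of all features. The median range from the lowest to the highest array was 0.68 for the 44 collagens and 0.53 for all features. A range over 1 was found in 19 of the 44 (43.2%) against 12.9% of all features, and a range over 2 in 9 of the 44 (20.5%) against 2.47%. At the other end, 10 collagens (22.7%, against 43.5% of all features) stayed within a range of 0.5, among them Col6a5, Col9a2, Col27a1 and Col10a1, with ranges of 0.25 to 0.32. With the mean of all probes of a gene, the median range was 0.63 for collagens and 0.48 for all features, 13 collagens had a range over 1 (29.5%, against 8.93%), 6 had a range over 2 (13.6%, against 1.71%) and 17 stayed within 0.5 (38.6%, against 55.3%). On the kept probes the widest range, 4.45, was that of Col1a1, followed by Col3a1 with 3.94, Col6a1 with 3.36 and Col18a1 with 3.11. The sum of squares of each gene was divided among replicate number, day, siRNA and a remainder that these 3 did not take. Among the 3, the replicate took the largest share in 35 of the 44 collagens (79.5%, against 70.4% of all features). The day did so in 6 (13.6%, against 24.1%) and the siRNA in 3 (6.82%, against 5.48%). The remainder was larger still in Col6a5 (93.9%), Col2a1 (89.0%), Col9a2 (88.0%), Col20a1 (61.3%), Col11a2 (49.4%), Col4a5 (42.5%) and Col28a1 (35.0%). Of these, Col11a2 and Col28a1 were counted to the siRNA. Over the collagens the median share was 56.9% for the replicate, 9.48% for the day and 1.51% for the siRNA, each taken separately. Over all features these medians were 49.3%, 10.1% and 2.57%.

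**Figure D1:**
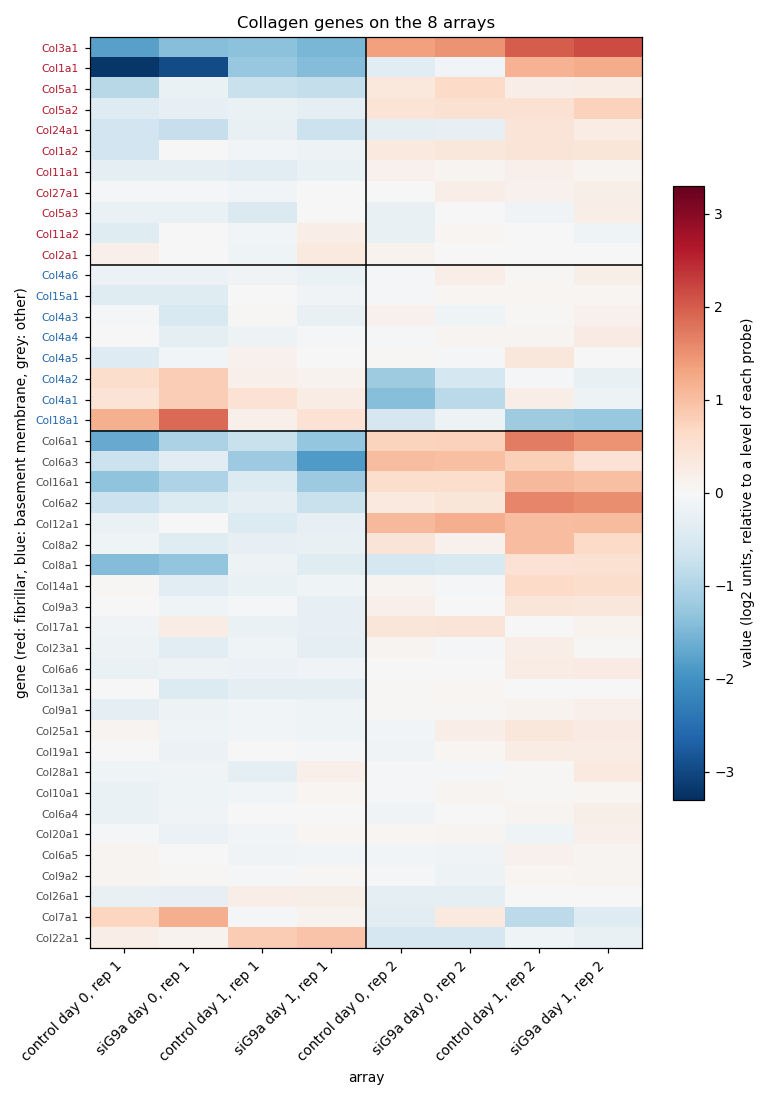
Values of the 44 collagen genes (rows, grouped as fibrillar, basement membrane and other) on each of the 8 arrays (columns, the 4 groups of replicate 1 and then of replicate 2), in log2 units relative to each probe's reference level, with blue for low and red for high. The division between the replicates is the main contrast in Col3a1, Col1a1, Col6a1, Col6a3, Col16a1 and Col6a2, which are higher in replicate 2. Col4a1, Col4a2, Col18a1, Col7a1 and Col22a1 are lower in replicate 2 than in replicate 1 within each group.

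The difference between replicates, described first because it was the largest, has 1 array on each side within a group and no test. Col3a1, the chain of type III collagen found beside type I in compliant tissues, stood in replicate 1 at -1.79 in control and -1.41 in siG9a cells at day 0 and at -1.36 and -1.52 at day 1. In replicate 2 the corresponding values were 1.36 and 1.47 at day 0 and 1.99 and 2.15 at day 1. All 4 arrays of replicate 2 thus lay above all 4 of replicate 1, by 2.88 to 3.67 within a group with a mean of 3.26, and the replicate accounted for 97.4% of the gene's variation. The other Col3a1 probe had the same sign and a smaller size: it gave a mean difference of 0.52, and the mean over both probes 1.89.

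Col1a1, the alpha 1 chain of type I collagen, showed the replicates apart and a change with day. Its values in replicate 1 were -3.22 in control and -2.96 in siG9a cells at day 0, and -1.25 and -1.42 at day 1. In replicate 2 they were -0.36 and -0.09 at day 0, and 1.14 and 1.23 at day 1. Every array of replicate 2 lay above every array of replicate 1, by 2.39 to 2.87 within a group (mean 2.69). The other Col1a1 probe gave 0.22, and the mean over both probes 1.46. Its partner chain Col1a2 ranged from -0.64 to -0.01 in replicate 1 and from 0.32 to 0.42 in replicate 2, a mean difference of 0.61. Of the type V chains, which take part in starting fibrils, Col5a1 was higher in replicate 2 by 1.04 and Col5a2 by 0.85, and Col5a3 by 0.19. Col11a1, of the cartilage type XI fibril, was higher by 0.42, and the type II chain Col2a1, the defining collagen of cartilage, differed by -0.07.

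The promoter of Col3a1 is shown because this gene had the largest replicate difference and lies beside Col5a2 on chromosome 1. The window, from RefSeq (GRCm38.p6), holds 250 bases before and 50 after the annotated start at chr1:45311288-45311587 on the plus strand, and capitals mark the TATA box (TATAAA) and the 4 E-boxes (CANNTG) that it contained, 1 of them directly after the TATA box.
Col3a1: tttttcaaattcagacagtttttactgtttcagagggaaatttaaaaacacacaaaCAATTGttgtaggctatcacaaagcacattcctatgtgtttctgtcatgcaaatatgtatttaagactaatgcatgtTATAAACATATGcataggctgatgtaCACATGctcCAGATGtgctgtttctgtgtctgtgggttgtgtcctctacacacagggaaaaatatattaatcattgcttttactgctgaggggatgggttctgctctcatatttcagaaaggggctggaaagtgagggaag
Its GC content was 37.7%, against a median of 59.8% over the 38 promoter windows of 35 collagens and 52.7% over 32841 promoters of the table. Col5a2 stood in replicate 1 at -0.42 in control and -0.27 in siG9a cells at day 0 and at -0.21 and -0.32 at day 1, and in replicate 2 at 0.44, 0.50, 0.50 and 0.75. Its mean replicate difference of 0.85 had the sign of that of Col3a1 (3.26) and a smaller size. The other Col5a2 probes gave 0.17 to 0.50, and the mean over all probes 0.43.

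The basement membrane collagens were divided in their replicate difference. Replicate 2 lay above replicate 1 in all 4 groups for 3 of 8 and below it for 3 (Col4a1, Col4a2 and Col18a1). For fibrillar collagens these counts were 8 of 11 and 0, and for all features the shares were 51.7% and 12.9%. The median replicate difference of the basement membrane class was 0.20, against 0.61 for fibrillar collagens, 0.30 for the other collagens and 0.18 for all features. Centring each array on its median lowers every replicate difference by 0.14, and the medians were then 0.06, 0.47, 0.16 and 0.04. Col18a1, the type XVIII chain from which endostatin is cut, was at 1.17 in control and 1.86 in siG9a cells at day 0 and at 0.17 and 0.47 at day 1 in replicate 1. In replicate 2 it was at -0.55 and -0.17 at day 0 and at -1.18 and -1.25 at day 1. Every replicate 2 array was below every replicate 1 array, by -1.36 to -2.04 within a group. Of the other Col18a1 probes, 1 gave -1.11 and the other 0.10, and the mean over all probes was -0.91.

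Col4a1 and Col4a2, which encode the chains of the most widespread type IV collagen, had replicate differences of like size in each group. Col4a1 stood in replicate 1 at 0.46 in control and 0.82 in siG9a cells at day 0 and at 0.48 and 0.24 at day 1, and in replicate 2 at -1.40, -0.89, 0.23 and -0.17 in the same order. Col4a2 stood in replicate 1 at 0.57, 0.81, 0.17 and 0.11, and in replicate 2 at -1.17, -0.57, -0.04 and -0.25. Both genes were low on the day 0 arrays of replicate 2 and closer together between replicates at day 1, where the Col4a1 difference was -0.25 in control and -0.41 in siG9a cells, against -1.86 and -1.72 at day 0. The Col4a2 difference was -0.21 and -0.35 at day 1, against -1.75 and -1.38 at day 0. With each gene centred on its own mean over the 8 arrays, the pair lay at most 0.34 apart on an array.

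The pairs Col4a3 and Col4a4 (chromosome 1) and Col4a5 and Col4a6 (chromosome X) are also arranged head to head. Centred in the same way they lay at most 0.26 and 0.29 apart, but their own ranges were small, 0.43 to 0.80. In the order control and siG9a at day 0, then control and siG9a at day 1, Col4a4 stood at 0.00, -0.30, -0.16 and -0.07 in replicate 1 and at -0.06, 0.09, 0.08 and 0.27 in replicate 2. Col4a5 stood at -0.43, -0.08, 0.13 and 0.02 in replicate 1 and at 0.03, -0.03, 0.37 and -0.01 in replicate 2. Col4a6 stood at -0.19, -0.20, -0.11 and -0.21 in replicate 1 and at -0.03, 0.22, 0.05 and 0.20 in replicate 2. In Col4a4 and Col4a5 the replicates overlapped, and in Col4a6 replicate 2 lay above replicate 1.

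Col4a1 and Col4a2 are read in opposite directions from adjacent starts on chromosome 8, and both promoter windows are shown because the genes share this region and had replicate differences of like size. Capitals mark the 78 bases, chr8:11312777-11312854, that the windows share on opposite strands; the annotated starts lie 21 bases apart. The Col4a1 window is chr8:11312777-11313076 on the minus strand and the Col4a2 window chr8:11312555-11312854 on the plus strand (RefSeq, GRCm38.p6).
Col4a1: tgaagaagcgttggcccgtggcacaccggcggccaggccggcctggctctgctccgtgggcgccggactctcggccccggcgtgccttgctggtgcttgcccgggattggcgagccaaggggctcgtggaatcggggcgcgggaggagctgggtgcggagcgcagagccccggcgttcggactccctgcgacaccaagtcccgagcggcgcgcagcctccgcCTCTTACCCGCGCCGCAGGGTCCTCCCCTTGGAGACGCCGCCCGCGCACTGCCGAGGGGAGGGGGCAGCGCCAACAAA
Col4a2: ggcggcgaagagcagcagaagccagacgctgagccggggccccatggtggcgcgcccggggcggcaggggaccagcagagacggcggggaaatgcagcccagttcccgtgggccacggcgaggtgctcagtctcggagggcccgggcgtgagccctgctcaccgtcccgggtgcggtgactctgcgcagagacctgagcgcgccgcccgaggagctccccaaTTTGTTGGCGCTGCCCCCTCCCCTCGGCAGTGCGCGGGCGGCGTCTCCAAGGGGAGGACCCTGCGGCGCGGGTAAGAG
Their GC contents were 74.0% and 73.7%, and neither held a TATA box or an E-box, while both held a CCAAT box.

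Type VI and fibril-associated collagens had the largest of the remaining replicate differences. Col6a1 stood in replicate 1 at -1.67 in control and -1.05 in siG9a cells at day 0 and at -0.73 and -1.28 at day 1, and in replicate 2 at 0.73, 0.76, 1.69 and 1.49. Col6a2, its neighbour on chromosome 10, stood at -0.70, -0.46, -0.32 and -0.73 in replicate 1 and at 0.32, 0.40, 1.62 and 1.54 in replicate 2. Col6a3, the longest chain of the same filament, stood at -0.70, -0.36, -1.19 and -1.88 in replicate 1 and at 1.01, 1.0, 0.79 and 0.48 in replicate 2. In each of these genes all replicate 2 arrays lay above all replicate 1 arrays, with mean differences of 2.35, 1.52 and 1.85, and all their probes gave the same sign. Col16a1 (1.81) and Col12a1 (1.32), both fibril-associated, were higher in replicate 2 as well, whereas Col22a1, a fibril-associated collagen of the muscle-tendon junction, differed by -0.91 and Col7a1 by -0.82. Other probes gave 0.36 and 0.78 for Col12a1, 0.16 for Col22a1 and 0.25 for Col7a1, and the means over all probes were 0.82, -0.37 and -0.28, so the sign of Col22a1 and Col7a1 depended on the probe. The type VI chains of the second set, Col6a4, Col6a5 and Col6a6, differed by 0.12, 0.03 and 0.31.

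Counted over the family, 8 of the 44 collagens were higher in replicate 2 by more than 1 unit in the mean of the 4 groups, against a background of 0.9% of all features, and 2 (Col18a1 and Col4a1) were lower by more than 1 unit, against 0.96%. Replicate 2 lay above replicate 1 in all 4 groups for 28 of the 44 (63.6%), against 51.7% of all features, and below it in all 4 for 6 (13.6%), against 12.9%. With centred arrays 18 lay above (40.9%, against 24.1%) and 6 below (13.6%, against 19.9%). Averaging the probes of a gene left 8 collagens with a difference over 1 unit in size, against 1.16% of features. With the kept probes there were 10, against 1.86%. Centring gave 11, a count without a background, since the share of all features was not taken there. Of the fibroblast markers, 7 of 8 were measured. The median of their replicate differences was 0.15 to 0.48 within groups. Endothelial (0.30 to 0.37), macrophage (0.10 to 0.31), adipocyte (0.27 to 0.40) and tendon and cartilage markers (0.22 to 0.45) had medians of like size. The myoblast list had medians of the opposite sign, -0.90 to -0.60. Pdgfra, a receptor of mesenchymal progenitor cells chosen after its values were seen, was at 0.28, 0.19, -0.69 and -0.73 in replicate 1 and at 2.01, 2.01, 1.93 and 1.63 in replicate 2. Another fibroblast marker, Tcf7l2, went the other way at day 0, with 0.49 and 0.59 in replicate 1 and 0.06 and 0.12 in replicate 2. The part of other cell types in the replicate difference was not tested.

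**Figure D2:**
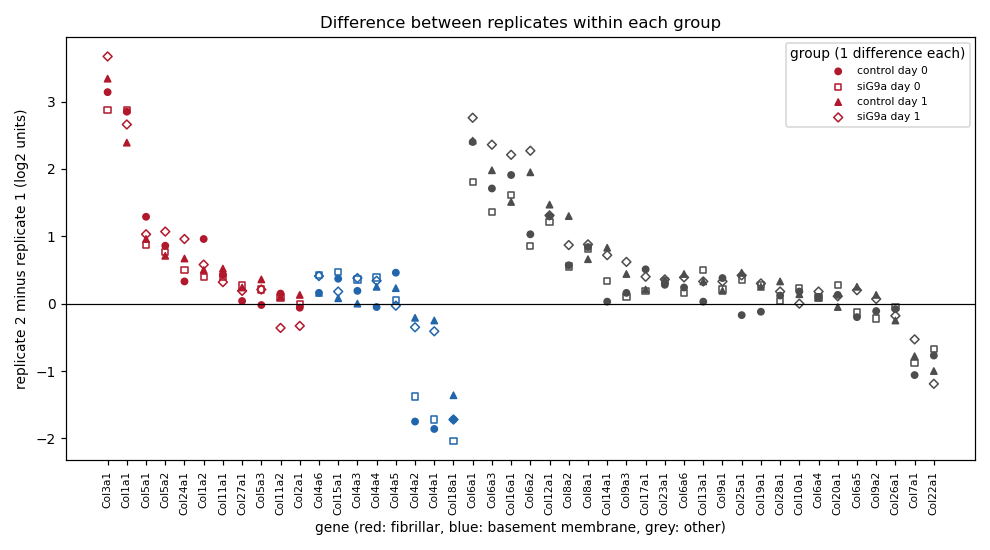
Replicate 2 minus replicate 1 in log2 units for each of the 44 collagens, with 1 symbol for each of the 4 groups (1 array minus 1 array, so no error can be given), fibrillar collagens in red, basement membrane collagens in blue and the others in grey. The 4 symbols of Col3a1 lie between 2.88 and 3.67 and those of Col18a1 between -2.04 and -1.36, while those of Col4a1 and Col4a2 split by day.

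The comparison of day 1 with day 0 asked which collagens changed over the culture interval. In limma without the replicate number, 0 of the 44 collagens were called at an adjusted p under 0.05 in control cells (353 features, 1.12%) and 0 of 44 in siG9a cells (285 features, 0.906%). At an unadjusted p under 0.05 there were 3 and 2, against 2421 and 2458 of 31443 features. The smallest adjusted p in this limma fit was 0.416 for Col8a1 in control and 0.619 for Col26a1 in siG9a cells. With the replicate number as a block, limma called 8 of 44 in control cells (18.2%, against 8.83% of all features) and 8 of 44 in siG9a cells (18.2%, against 8.98%). The kept probe was chosen on the spread over these same arrays, and 59.1% of collagens but 27.1% of features had several probes. The blocked fit was not run on the mean of probes, so the part of this choice in the shares called was not tested. In control cells 6 rose (background 3.85%) and 2 fell (background 4.97%). In siG9a cells 4 rose (background 3.42%) and 4 fell (background 5.56%). With each array also centred on its median the split was 2 higher and 5 lower, against 9.92% of all features called in either direction. Below, a collagen that rose or fell over the days did so in the blocked fit, and its standard error is from that fit (n = 2 arrays a group). When each array was left out in turn from the blocked fit, Col1a1 and Col8a1 in both arms, and Col18a1 and Col7a1 in siG9a cells, were called in all 8 fits. The other calls held in 6 of 8 fits for Col6a3, in 5 for Col16a1 and for Col18a1 and Col7a1 in control cells, in 4 for Col6a1 and Col22a1, in 3 for Col24a1, in 2 for Col5a1 and in 0 for Col26a1 in either arm.

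Col8a1, whose product forms hexagonal lattices in vessel walls and the cornea, rose in both arms. Its values rose from -1.42 to -0.18 in control and from -1.31 to -0.39 in siG9a cells of replicate 1. In replicate 2 they rose from -0.58 to 0.48 and from -0.49 to 0.49. Day 1 arrays lay above day 0 arrays in every group without overlap, and the day accounted for 62.5% of the variation of the gene. The rise was 1.15 ± 0.10 in control (limma, adjusted p = 0.000233) and 0.95 ± 0.10 in siG9a cells (limma, adjusted p = 0.000636). Its other probe, ILMN_1255925, gave 1.25 and 0.93, and when every probe was tested singly without a block this probe was the 1 collagen probe called in control cells (1.25 ± 0.17, limma, adjusted p = 0.018).

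The Col8a1 promoter is shown because this gene held the 1 collagen probe called between the days without the block. The window is chr16:57754688-57754987 on the minus strand (RefSeq, GRCm38.p6), and capitals mark 4 GC boxes (GGGCGG on either strand, here read as CCGCCC) and 3 E-boxes (CANNTG), of which 1 overlaps a GC box by 1 base.
Col8a1: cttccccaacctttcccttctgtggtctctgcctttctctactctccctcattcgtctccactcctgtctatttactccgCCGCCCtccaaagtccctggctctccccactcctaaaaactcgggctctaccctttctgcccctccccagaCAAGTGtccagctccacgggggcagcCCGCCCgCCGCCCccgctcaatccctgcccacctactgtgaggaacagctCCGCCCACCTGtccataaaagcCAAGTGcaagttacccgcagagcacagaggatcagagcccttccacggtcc
Searched on both strands, the GC box was in 23 of 38 collagen windows (60.5%) against 35.7% of all 32841 promoters, the E-box in 20 (52.6%) against 72.3%, the CCAAT box in 13 (34.2%) against 37.4% and the TATA box in 5 (13.2%) against 13.6%. The GC content of the collagen windows was also higher than that of the table, and its part in these shares was not tested.

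Col1a1 had the largest rise. From the values given above it rose by 1.97 in replicate 1 and 1.5 in replicate 2 of control cells, and by 1.54 and 1.33 in siG9a cells. In the blocked fit this was 1.73 ± 0.13 (limma, adjusted p = 0.000112) and 1.43 ± 0.13 (limma, adjusted p = 0.000291). Without the block, leaving out 1 array moved these differences between 0.31 and 3.16 and between 0.00 and 2.87, against 1.53 to 1.93 and 1.32 to 1.55 with it. The change rests on probe ILMN_2687872, because the gene's other probe differed by -0.12 in control and 0.03 in siG9a cells. The remaining fibrillar calls were smaller and held in 1 siRNA arm each. Col24a1, a fibrillar chain of developing bone and cornea, was at -0.64 and -0.31 in control cells at day 0 and at -0.25 and 0.42 at day 1, a rise of 0.56 ± 0.15 (limma, adjusted p = 0.0477). Its siG9a values went from -0.77 and -0.27 to -0.71 and 0.25, a difference of 0.29 that was not called. Other Col24a1 probes gave 0.09 to 0.44 in control and 0.18 to 0.34 in siG9a cells. Col5a1 fell in siG9a cells by 0.47 ± 0.12 (limma, adjusted p = 0.0446), from -0.23 and 0.64 to -0.78 and 0.25, and went from -0.92 and 0.36 to -0.73 and 0.23 in control cells.

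Col18a1 was the 1 basement membrane collagen called, and it fell in both arms. The decrease was -0.82 ± 0.15 in control (limma, adjusted p = 0.00862) and -1.23 ± 0.15 in siG9a cells (limma, adjusted p = 0.0011), and its 3 probes gave -0.28 to -1.25 and -0.54 to -1.75. Col4a1 and Col4a2 had day differences that differed between the replicates. In control cells Col4a1 moved by 0.02 in replicate 1 and 1.63 in replicate 2, and Col4a2 by -0.41 and 1.13, and neither mean (0.83 ± 0.36 and 0.36 ± 0.33) was called. In siG9a cells Col4a1 moved by -0.58 and 0.73 and Col4a2 by -0.70 and 0.32.

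Among the other collagens, Col7a1 fell and Col26a1 rose in both arms. Col7a1 was at 0.70 and -0.36 in control and at 1.21 and 0.33 in siG9a cells at day 0 (replicate 1, then 2), and at -0.07 and -0.86 and at 0.11 and -0.42 at day 1. The decrease was -0.64 ± 0.13 in control (limma, adjusted p = 0.0167) and -0.93 ± 0.13 in siG9a cells (limma, adjusted p = 0.00263), where the days did not overlap; its other probe gave 0.00 and -0.14. Col26a1 went from -0.24 and -0.32 to 0.23 and -0.01 in control and from -0.26 and -0.32 to 0.19 and 0.01 in siG9a cells. Both rises were 0.39 ± 0.10 (limma, adjusted p = 0.0486 and 0.0477), without overlap of the days, and the day took 85.8% of the gene's variation. Both calls of Col26a1 were lost when arrays were also centred.

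Type VI and fibril-associated chains were called in 1 arm each. Col6a1 rose in control cells by 0.95 ± 0.19 (limma, adjusted p = 0.0135), by 0.94 and 0.95 in the replicates, while the siG9a replicates went -0.23 and 0.73. Its other probes gave 0.57 and 0.92 in control cells and 0.20 and 0.62 in siG9a cells. Col16a1 rose in control cells by 0.68 ± 0.16 (limma, adjusted p = 0.0294), from -1.34 and 0.57 to -0.45 and 1.06, and its siG9a replicates went -0.18 and 0.41. Col6a3 fell in siG9a cells by 1.02 ± 0.20 (limma, adjusted p = 0.013), by -1.52 in replicate 1 and -0.52 in replicate 2; its other probes gave -0.26 and -0.02. Col22a1 rose in siG9a cells by 0.57 ± 0.14 (limma, adjusted p = 0.0312), from 0.11 and -0.56 to 0.94 and -0.25, and went from 0.22 and -0.55 to 0.85 and -0.15 in control cells. Its other probe gave 0.12 in siG9a and -0.04 in control cells, and the call was lost when arrays were also centred. Whether an arm differed from the other is the interaction, and no collagen was called in it. The smallest interaction adjusted p over the collagens was 0.92 with the block.

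**Figure D3:**
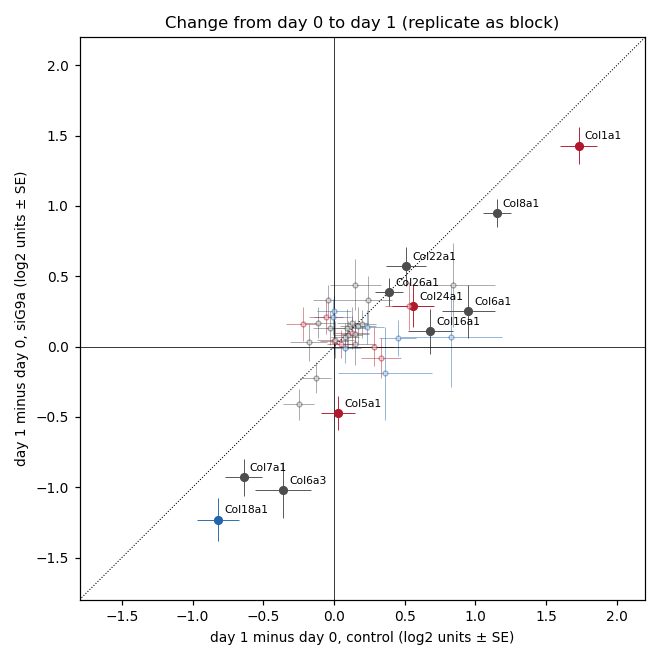
Day 1 minus day 0 in control cells (horizontal axis) against the same difference in siG9a cells (vertical axis), in log2 units, for the 44 collagens, with bars for the standard error of the blocked fit. Filled and named points were called in at least 1 arm, colours mark fibrillar (red), basement membrane (blue) and other (grey) collagens, and the dotted line marks equal change. Col1a1 (1.73 and 1.43) and Col8a1 (1.15 and 0.95) lie at the upper right and Col18a1 (-0.82 and -1.23) at the lower left.

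By class, the blocked fit called 18.2% of fibrillar, 12.5% of basement membrane and 20.0% of other collagens in each arm. In control cells 31 of 44 collagens were higher at day 1, against 16494 of 31443 features. Class medians were 0.13 (fibrillar), 0.16 (basement membrane) and 0.13 (other) against 0.01 for all features. In siG9a cells 35 of 44 were higher, against 21996 of 31443 features, with medians of 0.10, 0.07 and 0.13 against 0.09. These siG9a medians became 0.02, -0.02 and 0.05 with centred arrays and -0.03, 0.02 and 0.07 with quantile normalized arrays, so the fibrillar and basement membrane directions depended on the scaling. Leaving out 1 array without the block moved the fibrillar median between -0.22 and 0.56 in control and between -0.12 and 0.24 in siG9a cells. With the block this median lay between 0.08 and 0.21 in control and between 0.02 and 0.12 in siG9a cells. The days did not overlap for 7 higher and 3 lower collagens in control cells, against 13.4% and 13.1% of all features, and for 5 higher and 2 lower in siG9a cells, against 18.0% and 9.94%. Both counts lie near those backgrounds or below. Beside the day changes, the 6 differentiating muscle markers were called higher in both arms of the blocked fit, by 3.25 to 4.8; their part in the collagen changes was not tested.

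**Figure D4:**
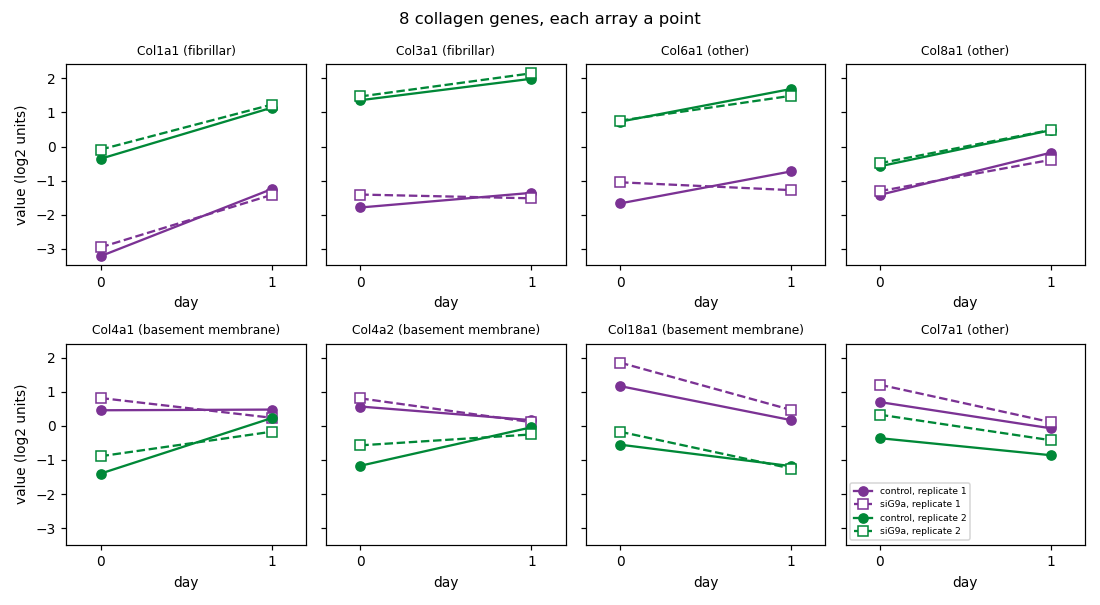
Values of 8 collagens on each of the 8 arrays by day, in log2 units relative to each probe's reference level, with 1 line for each siRNA and replicate (purple for replicate 1, green for replicate 2, filled for control and open for siG9a). Each point is 1 array. Col8a1 and Col1a1 run upward and Col18a1 and Col7a1 downward in all 4 lines, Col3a1 separates by replicate, and Col4a1 and Col4a2 are lowest at day 0 in replicate 2.

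The comparison of siG9a with control cells asked which collagens differed when G9a was targeted. In limma, 0 of the 44 collagens were called at day 0, at day 1 or in the mean of both days, where the background was 0.0% of all features in each, and 0 were called with the replicate block. No collagen had an unadjusted p under 0.05 in limma without the block. With it, 6 did at day 0, 5 at day 1 and 7 in the mean of both days. Over all 31443 features the counts with the block were 1728, 1195 and 1540. The differences were also small: they ran from -0.35 to 0.60 at day 0, from -0.50 to 0.40 at day 1 and from -0.23 to 0.45 in the mean.

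Col7a1, the anchoring fibril chain, was higher in siG9a than in control cells in all 4 pairs. From the values above the differences were 0.51 and 0.69 at day 0 and 0.18 and 0.43 at day 1 (replicate 1, then 2), so siG9a lay above control in each pair while the groups overlapped across replicates. The mean was 0.45 with a standard error of 0.30 in limma without the block (adjusted p = 1.0) and 0.09 with it (adjusted p = 0.518). When the differences within day and replicate were tested against 0, a fit chosen after the data were seen that treats 4 differences from 2 replicates as independent, Col7a1 was the 1 collagen called (0.45 ± 0.09, limma, adjusted p = 0.0123), among 256 features (0.814%). Its other probe gave a mean of 0.03. The collagens that followed in that fit were Col18a1, with 0.32 and an adjusted p of 0.175, and Col5a3, with 0.27 and an adjusted p of 0.222, from limma.

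Col5a3, the type V chain of narrowest tissue distribution, had the smallest p without the block among collagens higher in siG9a cells. Its control values were -0.23 and -0.25 at day 0 and -0.48 and -0.12 at day 1, and its siG9a values were -0.21 and 0.00 at day 0 and 0.00 and 0.21 at day 1. siG9a lay above control in every pair, without overlap within a day, by 0.13 ± 0.12 at day 0 and 0.40 ± 0.12 at day 1 in the blocked limma fit, with adjusted p of 0.92 and 0.993. The siRNA took 47.8% of the variation of Col5a3. Col11a2 (0.21 in the mean of both days) and Col28a1 (0.19) followed. Col11a2 was at -0.39 and -0.24 in control and -0.01 and 0.07 in siG9a cells at day 0, and at -0.09 and 0.01 against 0.21 and -0.14 at day 1, so its pairs differed by 0.38, 0.31, 0.30 and -0.16. Col28a1 was at -0.15 and -0.03 in control and -0.11 and -0.07 in siG9a cells at day 0, and at -0.30 and 0.03 against 0.16 and 0.33 at day 1, with pair differences of 0.04, -0.04, 0.45 and 0.30.

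The collagens lower in siG9a cells with the smallest p were Col4a3, a kidney basement membrane chain (-0.23), the membrane-spanning Col23a1 (-0.17), the cartilage chain Col9a3 (-0.16) and Col24a1 (-0.18). Col4a3 was at -0.05 and 0.14 in control and -0.49 and -0.13 in siG9a cells at day 0, and at 0.05 and 0.05 against -0.25 and 0.14 at day 1. Col23a1 was at -0.18 and 0.10 in control and -0.38 and -0.04 in siG9a cells at day 0, and at -0.14 and 0.21 against -0.32 and 0.04 at day 1. Col9a3 was at 0.02 and 0.18 in control and -0.13 and -0.02 in siG9a cells at day 0, and at -0.03 and 0.41 against -0.26 and 0.37 at day 1. Control and siG9a arrays overlapped in Col23a1 at both days, in Col4a3 and Col9a3 at day 1 alone. Other probes gave -0.01 for Col23a1, -0.04 for Col9a3 and -0.14 to 0.05 for Col24a1.

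Over the family, 28 of 44 collagens were higher in siG9a cells at day 0, against 12293 of 31443 features. Class medians were 0.13 for fibrillar, 0.13 for basement membrane and 0.02 for other collagens against -0.04 for all features. The same medians were 0.17, 0.18 and 0.06 with centred arrays. Leaving out 1 array without the block moved them between -0.16 and 0.42, -0.18 and 0.13, and -0.15 and 0.13, so none kept its sign there. With the block they lay between 0.11 and 0.16, -0.03 and 0.16, and -0.02 and 0.07, so the fibrillar median kept its sign. At day 1, 21 of 44 were higher, against 18156 of 31443 features. Class medians were 0.01, -0.07 and 0.00 against 0.02, and centring turned the fibrillar median to -0.03. Without the block and with 1 array left out, the uncentred fibrillar median lay between -0.36 and 0.30, and with the block between -0.02 and 0.06. The groups did not overlap for 3 higher and 4 lower collagens at day 0, against 5.54% and 11.3% of all features, and for 5 higher and 1 lower at day 1, against 8.54% and 4.94%. siG9a was above control in all 4 pairs for 5 collagens (Col5a3, Col6a4, Col7a1, Col10a1 and Col12a1, 11.4% against 6.64% of features) and below in all 4 for 2 (Col9a3 and Col23a1, 4.55% against 8.37%).

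**Figure D5:**
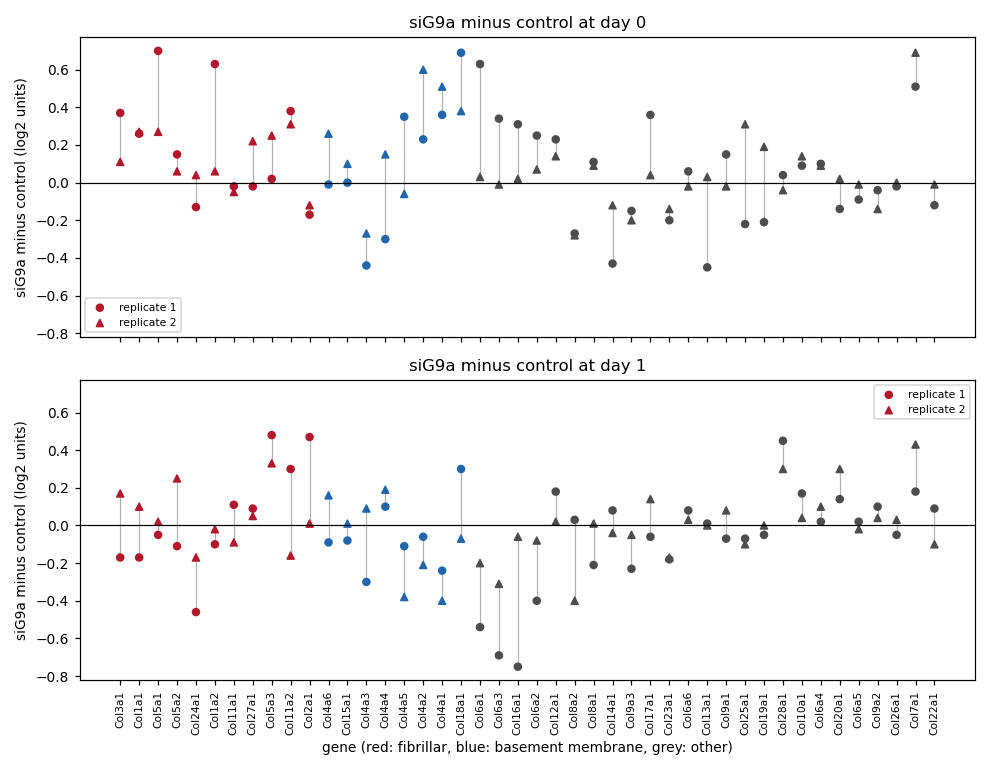
siG9a minus control at day 0 (upper panel) and at day 1 (lower panel) in log2 units for the 44 collagens, with a circle for replicate 1 and a triangle for replicate 2 (1 array minus 1 array each, no error bar) joined by a line, in red for fibrillar, blue for basement membrane and grey for other collagens. Col7a1 lies above 0 at all 4 points, and Col6a1, Col16a1, Col4a1 and Col4a2 lie above 0 at day 0 and below 0 at day 1.

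The siG9a difference was above 0 in both pairs at day 0 and below 0 in both at day 1 for 6 collagens (13.6%, against 4.61% of features), and the reverse for 2, Col2a1 and Col9a2 (4.55%, against 10.9%). The 6 were Col1a2, Col4a1, Col4a2, Col6a1, Col6a2 and Col16a1. In replicate 2 the differences at day 0 and day 1 were small in Col1a2 (0.06 and -0.02), Col6a2 (0.07 and -0.08) and Col16a1 (0.02 and -0.06). They were larger in Col4a1 (0.51 and -0.40) and Col4a2 (0.60 and -0.21). These counts of signs were not repeated on centred arrays. Col6a1 differed by 0.63 and 0.03 in the pairs at day 0 and by -0.54 and -0.20 at day 1, which gave an interaction of -0.70 ± 0.27 with the block. Col16a1 gave -0.57 ± 0.23, Col4a1 -0.75 ± 0.51, Col4a2 -0.55 ± 0.46, Col1a2 -0.41 ± 0.20 and Col6a2 -0.40 ± 0.42, and none was called. Of the other Col6a1 probes, 1 gave -0.03 at day 0 and 0.02 at day 1, and the other 0.36 and -0.36, so this pattern depended on the probe. The other Col6a2 probe differed by -0.20 at day 0, against 0.16 on the kept probe. In limma the interaction called 0 of 44 collagens with or without the block (background 0.0%). At an unadjusted p under 0.05 there were 0 collagens without the block and 5 with it, against 18 and 1382 of 31443 features. The class medians of the interaction were -0.24 for fibrillar, -0.24 for basement membrane and -0.01 for other collagens, against 0.06 for all features. Leaving out 1 array without the block moved the fibrillar median between -0.56 and 0.30. With the block the medians lay between -0.19 and -0.02 (fibrillar), -0.24 and -0.08 (basement membrane) and -0.08 and 0.01 (other). Beside these differences, the differentiating muscle markers had a median siG9a difference of 0.62 at day 0 (6 of 6 higher) and 0.08 at day 1 (5 of 6 higher), and an interaction median of -0.57 (6 of 6 lower). None of these was called in limma, and their part in the collagen differences was not tested.

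The genes that act on collagens were read from lists by role, against day backgrounds of 8.83% (control) and 8.98% (siG9a) of features called with the block and 1.12% and 0.906% without it. Of 19 measured enzymes and chaperones that modify and fold the chains, 0 were called without the block, and 2 in control and 3 in siG9a cells with it. In the blocked fit Fkbp14, a folding enzyme of the endoplasmic reticulum, rose in control cells by 0.47, and P4ha3, a subunit of prolyl 4-hydroxylase, fell in control by 0.47 and in siG9a cells by 0.62. P4hb, its partner subunit, and Crtap, of the prolyl 3-hydroxylation complex, fell in siG9a cells, by 0.43 and 0.51. Of 9 genes that remove propeptides, the blocked fit called 1 in control and 2 in siG9a cells. Pcolce2, an enhancer of the C-propeptide protease, differed without a block by -2.71 ± 0.44 in control cells (limma, adjusted p = 0.0312) and by -2.53 ± 0.44 in siG9a cells (limma, adjusted p = 0.0421), a fall in both. The related Pcolce fell in siG9a cells in the blocked fit, by 0.57.

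Of 6 cross-linking genes the blocked fit called 3 in each arm. Tgm2, a transglutaminase that links matrix proteins, rose by 3.10 ± 0.35 in control (limma without the block, adjusted p = 0.0137) and by 2.70 ± 0.35 in siG9a cells (adjusted p = 0.017). Of the lysyl oxidases, in the blocked fit Loxl1 rose by 1.59 and 1.08 and Lox fell by 0.82 and 1.38; the other 3 were not called. Of 12 breakdown genes 2 were called in each arm with the block. None of the proteases was called, and the called genes were protease inhibitors: Timp1 fell by 1.41 ± 0.26 in control (limma without the block, adjusted p = 0.0492) and fell by 1.74 ± 0.26 in siG9a cells (adjusted p = 0.0275), and Timp3 fell in the blocked fit by 1.62 and 2.04. Of 9 collagen receptors 2 were called in control and 0 in siG9a cells: the integrin chains Itga10 and Itga11 rose in control cells in the blocked fit, by 1.45 and 1.95.

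Of 13 regulators of collagen transcription the blocked fit called 6 in each arm. Tgfb2, a transforming growth factor, rose by 1.36 ± 0.18 in control (limma without the block, adjusted p = 0.019) and 1.0 ± 0.18 in siG9a cells (adjusted p = 0.0434). In the blocked fit Tgfb3, the signal transducer Smad3 and the tendon factor Scx rose in both arms, by 1.09 to 1.42, while Tgfb1 fell by 0.57 and 0.85 and the cartilage factor Sox9 by 1.51 and 1.77. No gene of these 6 lists was called between siG9a and control cells in either fit.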

How the data were processed

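Total RNA from 8 myoblast samples (4 groups, 2 arrays each) was read from the processed table deposited with the series. The deposited values were taken as log2 values that stand relative to a reference level of each probe; the log base is not stated, base 2 is an assumption, and the range within a probe reached 6.88 units. How the authors corrected the background, normalized and filtered is not given in the sources used here. Another table, of 16 signal and detection columns, was left out because its column names match no sample. The number of arrays limits the precision.

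Probes were named through the platform's gene table, by Entrez ID (28620), accession (2637) or the platform's symbol (4527), and 9497 probes had no single symbol. Each gene kept the probe whose standard deviation over the 8 arrays was largest, which gave 31443 features, and other probes are given beside collagens that were called or singled out. Promoter sequences are from RefSeq (GRCm38.p6), which held 35 of the 44 collagens. No entry was found for Col1a1, Col2a1, Col4a3, Col5a2, Col9a3, Col12a1, Col14a1, Col22a1 and Col26a1.

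In limma 3.58.1 (R 4.3.3) the means of the 4 groups were fitted over all 8 arrays with empirical Bayes moderation without an intensity trend. The threshold was 0.05 for p-values adjusted by Benjamini and Hochberg's method over the whole table. The 6 comparisons set siG9a against control (each day, and both together) and day 1 against day 0 (each siRNA), with the interaction. The same fit with the replicate number as a block was run because the numbers pair the samples: over the 6 pairs of groups, deviations from the group means correlated with r of 0.613 to 0.865 across features. An exact permutation test was not used, since 2 arrays against 2 cannot reach 0.05. The models were tested on simulated data.

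Alternatives were centring and quantile normalization of the arrays, the mean of a gene's probes, every probe singly, robust moderation and leaving out each array. The blocked fits on centred arrays and without each array, the ranges over the mean of probes and the test of differences within day and replicate were added after the data were seen. The collagens and all gene lists were chosen with earlier results of these data known. Values in every sample are given for collagens called in either fit, for up to 4 each way with the smallest p over both siG9a comparisons, and for neighbouring gene pairs. Other collagens, and the markers Pdgfra and Tcf7l2 in the replicate comparison, were named after their values were seen. Of the list genes, Adamts2, Fkbp10, Ly6a, Runx2 and Smad4 were not measured under these names.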

Additional observations from a re-analysis of the deposited data

How the results depend on the processing

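The count of collagens called was 0 in all 6 comparisons without the block, and leaving out any array, centring, quantile normalization, the mean of probes and robust moderation kept it at 0. For day 1 against day 0, the replicate block gave 8 in control and 8 in siG9a cells, against 8.83% and 8.98% of all features. The block with centred arrays gave 7 and 7, against 8.77% and 9.92%. Every probe singly gave 1 in control cells, against 1.14% of all probes. For siG9a against control over both days, the differences within day and replicate gave 1. The replicate block changed no other call. With the block and 1 array left out, limma called 2, 3, 4, 7 or 9 collagens in control and 4, 5, 6 or 7 in siG9a cells. Leaving out arrays without the block turned the sign of class medians and of 7 named gene differences, whose gene ranges were -0.27 to 1.64 for Col16a1, -1.68 to 0.05 for Col18a1 and -0.26 to 2.16 for Col6a1 (days, control), -0.02 to 1.16 for Col22a1, -0.98 to 0.04 for Col5a1 and -2.20 to 0.16 for Col6a3 (days, siG9a), and -0.42 to 0.06 for Col24a1 (siG9a against control over both days). In these fits the remaining array of a group is assumed to vary like the other groups, and a difference then sets arrays of unlike replicate numbers side by side. The features called between days were 353 in control and 285 in siG9a cells in the unblocked fit. They numbered 2775 and 2825 with the block, 92 and 147 with centred arrays, 2 and 12 with quantile normalized arrays, and 7 to 363 and 4 to 363 when an array was left out. The signal over background is unknown here, so flat collagens cannot be told apart from collagens below detection.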
